A study of Saccharomyces cerevisiae with 12 samples.

Results

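The 10 genes described here belong to the cell wall integrity pathway of budding yeast and were followed through long-term potassium chloride stress in 2 deletion strains. They encode 4 sensors of the plasma membrane (WSC1, WSC2, MID2 and MTL1), 5 protein kinases (PKC1, BCK1, MKK1, MKK2 and SLT2) and 1 transcription factor (RLM1). They were chosen by name from a table of 7126 genes and other features. The names of 9 were found in the table, and WSC1 was found under its synonym SLG1 (YOR008C). The crz1cnb1 strain lacks CRZ1, which encodes the main transcription factor activated by the phosphatase calcineurin, and CNB1, the gene of calcineurin's regulatory subunit (crz1delta::LEU2 and cnb1delta::KanMx). The crz1 strain carries only the crz1delta::LEU2 deletion of these. Each strain was sampled after 48 h in 400 mM KCl and at 0 h without KCl, which gave 4 groups of 3 libraries and 12 libraries in all. The cultures in KCl were diluted every 12 h, a step that per the labels was meant to hold them in logarithmic growth. Both strains are MATa haploids of the BY4741 background with the marker alleles his3delta1, leu2delta0, lys2delta0 and ura3delta0, and both carry HYG-TEFp-GFP(Y66F), a GFP gene behind the TEF promoter, at bases 181901 to 182001 of chromosome VI. They were grown in synthetic medium with ammonium chloride as nitrogen source, and polyadenylated RNA was sequenced. No culture kept without KCl for 48 h and no strain with CRZ1 was analysed here, so that KCl and 48 h of culture cannot be told apart. The question of the series was which expression changes in KCl depend on calcineurin but not on Crz1.

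The cell wall integrity pathway reports damage or stretch of the wall. Its sensors span the plasma membrane and reach into the wall with stiff, mannosylated extracellular parts, and they recruit Rom2, the exchange factor of the small GTPase Rho1. Rho1 binds Pkc1, which activates a cascade of the kinase Bck1, the paired kinases Mkk1 and Mkk2, and the mitogen-activated protein kinase Slt2. Slt2 phosphorylates the MADS-box factor Rlm1, which acts on many genes of wall synthesis, and calcineurin is a parallel regulator of the wall in this yeast. Much of the signal passes through phosphorylation of proteins already present, which RNA levels do not measure.

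The promoters of the pathway's own genes were searched for the binding motif of Rlm1, which is CTA and TAG around 4 bases that are each A or T, on both strands of the 500 bases before the coding start. The motif stood before 3 of the 10 genes, against 115 of 6431 nuclear genes (1.79%). Its shorter core, without the first C, which the full motif contains, stood before 4 of the 10 and before 1473 of 6431 nuclear genes (22.9%). The 4 windows are given because they are the places where the pathway's end factor could be compared with the pathway's own RNA, with the matched bases in capitals and 25 bases on each side, 5′ to 3′ on the strand of the gene, from the RefSeq genome of build R64.
BCK1 at chrX:247192-247251, plus strand, match 38 bases before the start: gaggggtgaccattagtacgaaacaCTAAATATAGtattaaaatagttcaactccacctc
MKK1 at chrXV:772143-772202, plus strand, match 433 bases before the start: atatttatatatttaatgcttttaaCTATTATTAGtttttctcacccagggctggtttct
RLM1 at chrXVI:381424-381483, minus strand, match 308 bases before the start: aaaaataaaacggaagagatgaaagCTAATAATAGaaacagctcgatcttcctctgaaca
SLT2 at chrVIII:170543-170601, minus strand, match 232 bases before the start: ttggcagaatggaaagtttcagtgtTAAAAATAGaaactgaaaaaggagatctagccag
BCK1, MKK1 and RLM1 hold the full motif and SLT2 only the core. A match is a description of the letters and not a measured binding site, and the 6 other genes have neither string in that window.

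Library totals ran between 21305485 and 21599279 counts, and all 10 genes passed the filter on low counts, with 207 to 5037 counts in every library. The deleted genes checked the labels. CNB1 had 31 to 68 counts in crz1cnb1 in KCl and 14 to 31 in crz1cnb1 at 0 h, against 2416 to 3139 in crz1 in KCl and 1346 to 2889 in crz1 at 0 h, and CRZ1 had 3 to 19 counts in any library. Genes specific to MATa cells summed to 2109 to 4517 CPM and genes specific to MATalpha cells to 22.1 to 53.0 CPM, where CPM is the count brought to a common library size with TMM scaling factors. CPM is a share of the sequenced RNA, so that fewer molecules per cell and more RNA from other genes cannot be told apart. The labels speak of triplicate experiments but do not say how the replicates were grown. The p-values set a difference between groups against the spread between these samples.

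Per unit of length, the sensors and the kinases spanned more than an order of magnitude of RNA level, with sensors at both ends. WSC1, the most abundant sensor, averaged 134 TPM (a unit corrected for gene length and library size) over the 12 libraries, and MTL1, the MID2 paralog, averaged 5.68 TPM. Between them stood MID2 at 87.6, WSC2 at 56.6, SLT2 at 51.1, MKK1 at 29.4, PKC1 at 20.7, MKK2 at 15.9, RLM1 at 14.3 and BCK1 at 6.95 TPM. Among all features, WSC1 stood at percentile 86.4 of mean TPM and MTL1 at percentile 20.4. The order was the same in the 4 groups but for MKK2 and RLM1, which changed places in crz1cnb1 in KCl. WSC1 was above MID2 in every library of each group, while WSC2 and SLT2, PKC1 and MKK2, and MKK2 and RLM1 overlapped in all 4 groups. MID2 stood clear of WSC2 in both groups at 0 h and overlapped it in both groups in KCl. Every gene has 1 uninterrupted coding part, and the deposited TPM implied the annotated gene lengths.

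**Figure D1:**
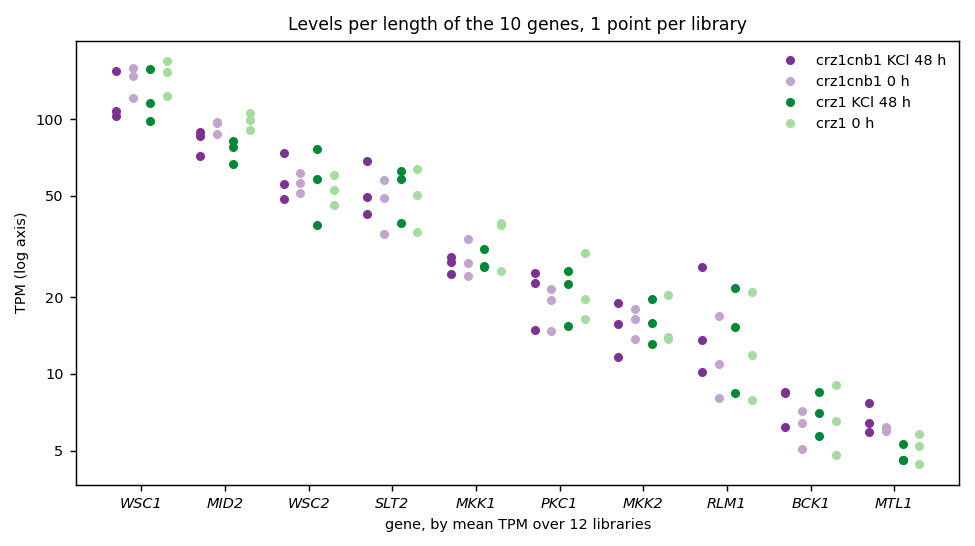
Level per length (TPM, log axis) of the 10 genes, ordered by their mean over the 12 libraries, with 1 point per library and the 4 groups side by side. WSC1 averaged 134 TPM and MTL1 5.68 TPM, and the points of the 4 groups overlap for most genes.

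None of the 10 genes passed the test for a response to KCl in either strain taken alone. With edgeR's quasi-likelihood test and Benjamini-Hochberg adjustment over 6309 features at 0.05, 0 of 10 were called in crz1cnb1, where 0.586% of all features were, and 0 of 10 in crz1, where 0.571% were. At an unadjusted p under 0.05 there were 0 in crz1cnb1 (8.35% of all features) and 1 in crz1 (MID2, 8.50% of all features). DESeq2 and limma on log2 TPM also called 0 in both strains. So did edgeR with the replicate number as a block, where 4.98% of features were called in crz1cnb1 and 4.82% in crz1. With that block an unadjusted p under 0.05 was reached by 3 of the 10 in crz1cnb1 (23.0% of all features) and 2 in crz1 (20.9%). The median log2 fold change of the 10 genes in KCl was −0.04 in crz1cnb1 and −0.07 in crz1, beside 0.02 over all features in crz1cnb1 and 0.01 in crz1, and with scaling by library totals the median of the 10 was 0.11 in crz1cnb1 and 0.01 in crz1. The 95% intervals of single genes without the block reached at most 1.10 upward and −0.94 downward in crz1cnb1, and 0.91 upward and −0.90 downward in crz1, so that larger changes lie outside them. HSP12, a small heat shock protein gene and a marker of general stress, rose in the same libraries by a log2 fold change of 2.39 ± 0.27 in crz1cnb1 (adjusted p 8.6e-04, SE) and 2.92 ± 0.27 in crz1 (adjusted p 1.4e-04).

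**Figure D2:**
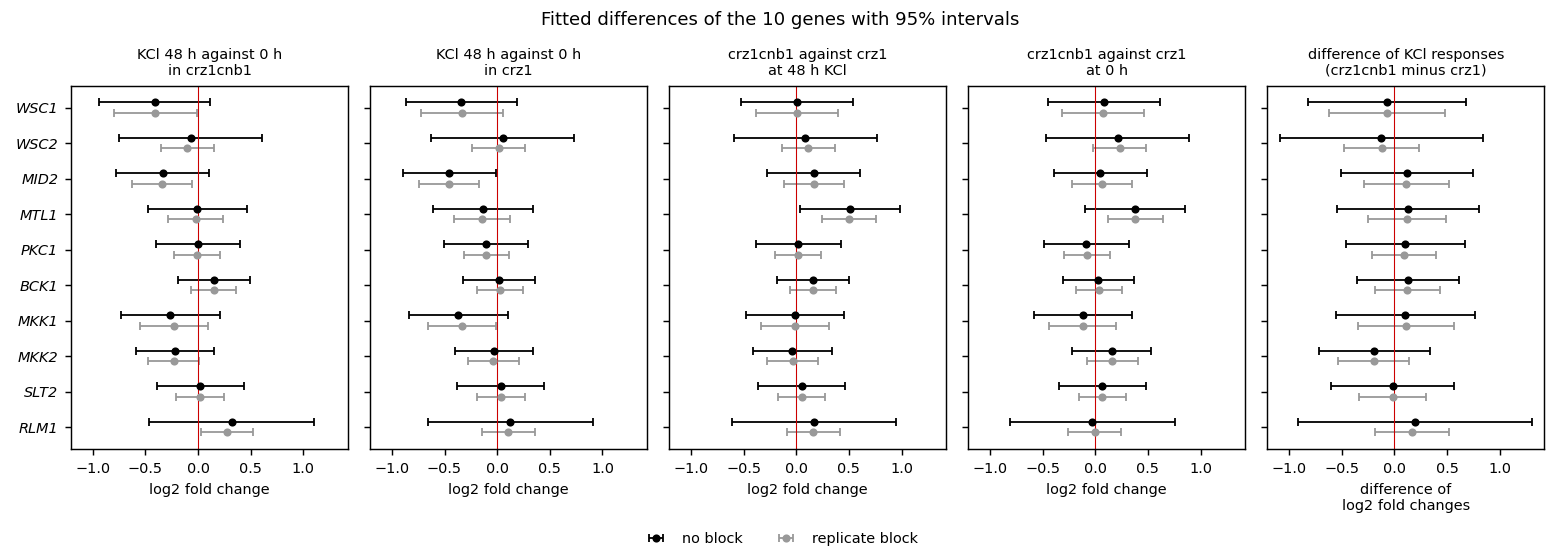
Fitted log2 fold changes of the 10 genes with 95% intervals for the KCl response in crz1cnb1 and in crz1, for crz1cnb1 against crz1 in KCl and at 0 h, and for the difference of the KCl responses, without a replicate block (black) and with it (grey). Without the block the intervals of MID2 for KCl in crz1 and of MTL1 for the strains in KCl leave out 0, and none of the 10 genes passed the adjusted threshold in any panel.

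MID2 (YLR332W, chrXII:790676-791806, plus strand), a sensor needed for survival of pheromone treatment, was lower in KCl in 6 of 6 numbered pairs in CPM and in 5 of 6 in TPM. It measured 94.2, 113 and 139.5 CPM in crz1cnb1 in KCl, against 146, 137 and 155 CPM in crz1cnb1 at 0 h. It measured 95.8, 89.4 and 124 CPM in crz1 in KCl, against 154, 109 and 160.4 CPM in crz1 at 0 h. The highest KCl library lay above the lowest 0 h library in both strains, so the groups overlap in CPM, whereas in TPM the crz1 groups do not overlap (66.7 to 82.3 in KCl, against 90.4 to 106 at 0 h). In TPM crz1cnb1 library 3 was slightly higher in KCl, with 88.8 in KCl against 87.4 at 0 h. In TPM, 1 of 10 genes separated downward in crz1, where 3.22% of all features did. The log2 fold change was −0.34 ± 0.21 in crz1cnb1 (adjusted p 0.757) and −0.45 ± 0.21 in crz1 (adjusted p 0.562, SE, edgeR). With the block and without crz1 0 h library 2, MID2 passed in crz1 (−0.57, adjusted p 0.0286), against −0.46 (adjusted p 0.0686) with all libraries. Averaged over both strains, a comparison added after the data had been seen, it was −0.39 ± 0.15 without the block (adjusted p 0.184) and −0.40 ± 0.09 with it (adjusted p 0.0124). In that blocked average MID2 was the 1 gene of 10 called, and it fell. Of 6309 features 533 fell in that fit, and 19.1% were called in either direction. Without the block 0 of 10 were called and 3.77% of features. MID2 overlaps the dubious reading frame YLR331C on the other strand, which held 6 to 15 counts per library, and the strand setting of the counting is not given in the sources used here.

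WSC1 (chrXV:341278-342414, minus strand), the main sensor of heat and wall stress, measured 142, 204 and 163 CPM in crz1cnb1 in KCl, against 182, 212 and 284 CPM in crz1cnb1 at 0 h. It measured 144, 212 and 149 CPM in crz1 in KCl, against 179, 186 and 275 CPM in crz1 at 0 h. The groups overlapped in both strains, through library 2 in KCl. The log2 fold change was −0.41 ± 0.25 in crz1cnb1 (adjusted p 0.752) and −0.34 ± 0.25 in crz1 (adjusted p 0.873). The blocked average over the strains was −0.37 ± 0.13 (adjusted p 0.0629), lower in 5 of 6 pairs in CPM and in 4 of 6 in TPM, and it passed the threshold in the 4 fits that each left out 1 library numbered 2, with adjusted p between 0.0172 and 0.0474.

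The other sensors did not pass the test in KCl either. WSC2 (YNL283C, chrXIV:105184-106695, minus strand), a relative of WSC1, averaged 113 ± 37.2 CPM in crz1cnb1 in KCl and 119 ± 24.3 CPM in crz1cnb1 at 0 h (SD, n = 3 each). In crz1 it averaged 106 ± 43.6 CPM in KCl and 102 ± 28.1 CPM at 0 h. Its log2 fold changes were −0.07 ± 0.32 in crz1cnb1 and 0.05 ± 0.32 in crz1, with intervals from −0.75 to 0.61 in crz1cnb1 and from −0.63 to 0.73 in crz1. MTL1 (YGR023W, chrVII:529264-530919, plus strand) had log2 fold changes of −0.01 ± 0.22 in crz1cnb1 and −0.14 ± 0.22 in crz1.

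None of the kinases passed the test in KCl. PKC1 (YBL105C, chrII:14241-17696, minus strand), the only protein kinase C of this yeast, averaged 87.6 ± 14.7 CPM in crz1cnb1 in KCl and 87.6 ± 7.57 CPM in crz1cnb1 at 0 h, and 86.4 ± 13.3 CPM in crz1 in KCl and 92.9 ± 15.4 CPM in crz1 at 0 h. BCK1 (YJL095W, chrX:247255-251691, plus strand), the kinase at the head of the cascade, had log2 fold changes of 0.15 ± 0.16 in crz1cnb1 and 0.02 ± 0.16 in crz1. SLT2 (YHR030C, chrVIII:168890-170344, minus strand), the last kinase, measured 83.4, 116 and 86.1 CPM in crz1cnb1 in KCl, against 94.5, 106 and 80.9 CPM in crz1cnb1 at 0 h. It measured 98.9, 100.4 and 75.9 CPM in crz1 in KCl, against 93.9, 99.4 and 75.1 CPM in crz1 at 0 h. The groups overlap throughout, and the log2 fold changes of SLT2 were 0.02 (95% interval −0.39 to 0.43) in crz1cnb1 and 0.04 (−0.38 to 0.45) in crz1.

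MKK1 and MKK2, the redundant pair below Bck1, differed in which libraries were high. MKK1 (YOR231W, chrXV:772601-774127, plus strand) measured 50.9, 48.7 and 52.2 CPM in crz1cnb1 in KCl, against 48.9, 52.6 and 80.7 CPM in crz1cnb1 at 0 h. It measured 51.4, 48.2 and 53.5 CPM in crz1 in KCl, against 49.6, 62.9 and 85.2 CPM in crz1 at 0 h. The KCl libraries lie close together, and the higher means at 0 h come mainly from library 3. Its log2 fold changes were −0.26 ± 0.22 in crz1cnb1 and −0.37 ± 0.22 in crz1 (adjusted p 0.850 in crz1cnb1 and 0.810 in crz1). MKK2 (YPL140C, chrXVI:287514-289034, minus strand) averaged 28.7 ± 4.56 CPM in crz1cnb1 in KCl and 33.5 ± 0.96 CPM in crz1cnb1 at 0 h, with a log2 fold change of −0.22 ± 0.17. In crz1 it averaged 29.4 ± 5.19 CPM in KCl and 30.0 ± 3.26 CPM at 0 h. The longest run of identical bases that MKK1 and MKK2 share was 17, and no 50-base window of any of the 10 genes recurs elsewhere in the genome, so that reads of that length tell these paralogs apart.

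RLM1 (YPL089C, chrXVI:379120-381150, minus strand) was the most variable of the 10, with a 2.71-fold span of CPM over the 12 libraries. It measured 31.9, 61.8 and 28.6 CPM in crz1cnb1 in KCl, against 29.4, 43.1 and 25.5 CPM in crz1cnb1 at 0 h. It measured 33.7, 52.2 and 22.8 CPM in crz1 in KCl, against 31.0, 45.8 and 23.0 CPM in crz1 at 0 h. Library 2 was the highest and library 3 the lowest in every group, and KCl was above 0 h in 5 of 6 numbered pairs in CPM and in 6 of 6 in TPM. The log2 fold change was 0.32 ± 0.36 in crz1cnb1 (adjusted p 0.899) and 0.12 ± 0.36 in crz1 (adjusted p 0.988). With the replicate block the SE in crz1cnb1 was 0.11, for a log2 fold change of 0.27 (adjusted p 0.180), and with scaling by library totals besides it passed the threshold in crz1cnb1 (0.43, adjusted p 0.0440).

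**Figure D3:**
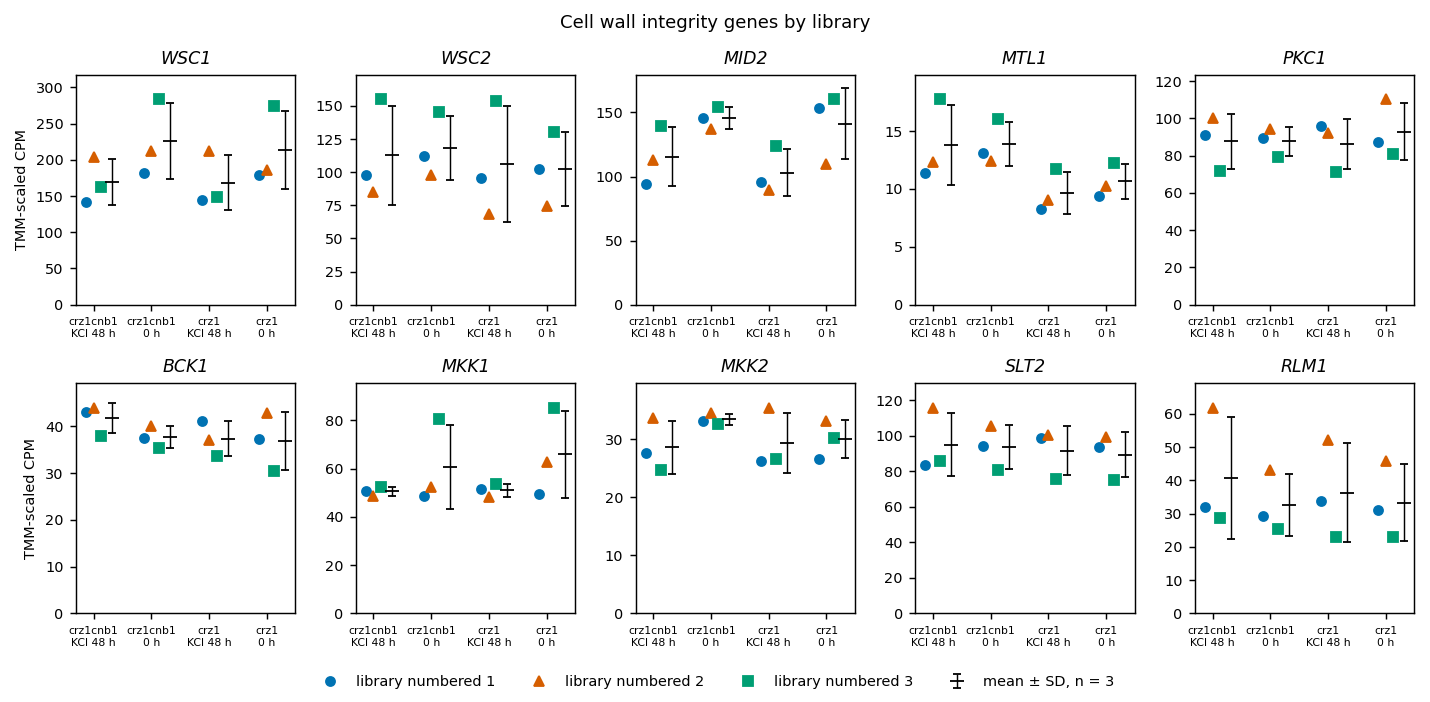
TMM-scaled CPM of the 10 genes in each of the 12 libraries, by group, with markers for the replicate number and a bar for the mean ± SD of 3 libraries. The MTL1 points of crz1cnb1 lie above those of crz1 with the same number and time, MID2 is lower in KCl in every numbered pair on this CPM scale, and the RLM1 libraries numbered 2 lie above all others of their group.

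Between the strains, MTL1 was the gene of the 10 with the largest difference. It measured 11.3, 12.3 and 17.8 CPM in crz1cnb1 in KCl, against 8.30, 9.03 and 11.7 CPM in crz1 in KCl. It measured 13.1, 12.4 and 16.0 CPM in crz1cnb1 at 0 h, against 9.38, 10.3 and 12.3 CPM in crz1 at 0 h. The strains did not overlap at 0 h and overlapped slightly in KCl, and crz1cnb1 was higher in 6 of 6 pairs of the same number and time. The log2 fold change of crz1cnb1 over crz1 was 0.51 ± 0.22 in KCl (95% interval 0.04 to 0.99) and 0.38 ± 0.22 at 0 h (−0.10 to 0.86), and neither passed adjustment (adjusted p 0.9999 in KCl and 0.9997 at 0 h). Averaged over both times, which was added after the data had been seen, it was 0.45 ± 0.16 without the block (adjusted p 0.9999) and 0.44 ± 0.08 with it (adjusted p 0.0739), where 0.269% of features were called. MTL1 had 207 to 350 counts per library, the fewest of the 10 genes. Its paralog MID2, with which it shares a longest identical run of 15 bases, had strain differences of 0.17 ± 0.21 in KCl and 0.05 ± 0.20 at 0 h. WSC2 was also higher in crz1cnb1 in 6 of 6 such pairs in CPM. Its blocked average over both times was 0.17 ± 0.08 (adjusted p 0.9997), and no share over all features is given here for such pairs.

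Of the 10 genes, 0 were called between the strains in KCl, where 0.0476% of all features were, and 0 at 0 h, where 0.0159% were. At an unadjusted p under 0.05 there were 1 in KCl (MTL1, 1.11% of all features) and 0 at 0 h (1.16% of all features). DESeq2 and limma called 0 at either time. The blocked edgeR fit also called 0, with 0.0634% of features called in KCl and 0.0793% at 0 h. MTL1 at 0 h was the 1 gene of 10 whose CPM did not overlap between strains, with 1.62% of all features separate in that direction, and in TPM it was separate upward at both times (0.777% of features in KCl and 0.539% at 0 h). In KCl, 0 of 10 were separate in CPM, and 2.82% of features were. Differences of crz1cnb1 over crz1 for the other 9 genes lay between −0.04 and 0.17 in KCl and between −0.12 and 0.21 at 0 h on the log2 scale. Between KCl and 0 h, 0 of 10 were separate in CPM in crz1cnb1 (13.3% of features) and 0 of 10 in crz1 (10.3% of features).

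The KCl responses of the 2 strains were compared through their difference, which asks whether a response depends on CNB1. The 10 differences, crz1cnb1 minus crz1, ran between −0.19 (MKK2) and 0.20 (RLM1) on the log2 scale, with a median of 0.11 beside −0.01 over all features. That median was lower in all 12 fits without 1 library, between 0.09 (without crz1 0 h library 1) and −8.2e-04 (without crz1cnb1 KCl library 3), and it was 0.18 with scaling by library totals. None was called by edgeR, DESeq2 or limma, and edgeR called 0.0% of all features. At an unadjusted p under 0.05 there were 0 of the 10 in edgeR, beside 0.285% of all features. SEs ran between 0.22 and 0.51 without the block, where the interval reached down to −1.09 for WSC2 and up to 1.31 for RLM1. With the block SEs ran between 0.14 and 0.25, and no interval passed −0.62 or 0.56. For SLT2 the difference was −0.01 ± 0.27 without the block and −0.02 ± 0.15 with it, and for MID2 it was 0.12 ± 0.29 without the block and 0.11 ± 0.18 with it.

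Most of the 10 genes differed between replicate numbers. Libraries with the same number deviated together from their group means, and in the blocked edgeR fit, in a joint test of the numbers added after the data had been seen, 9 of the 10 genes differed between the numbers, where 59.9% of all features did. The labels do not say what the number marks. RLM1 averaged 31.5 CPM in the libraries numbered 1, 50.7 in those numbered 2 and 24.98 in those numbered 3 (4 libraries each, adjusted p 1.1e-04), and the ratio of number 2 to number 3 within a group lay between 1.69 and 2.29. WSC2 took another course, with 102, 81.5 and 146 CPM for numbers 1, 2 and 3 (adjusted p 2.7e-04). It was highest in number 3 and lowest in number 2 in all 4 groups.

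The genes were high in different numbers. PKC1 and BCK1 were lowest in number 3 in all 4 groups, and SLT2, with 92.7, 105 and 79.5 CPM for numbers 1, 2 and 3 (adjusted p 0.0087), was highest in number 2 in all 4. MKK2 was highest in number 2 in all 4 groups as well. MID2, MTL1 and MKK1 were highest in number 3 in all 4 groups in CPM. For these the direction depends on the scaling, because TMM factors were lowest in number 3: in TPM, number 3 was the highest of MID2 in 2 groups, of MTL1 in 3 and of MKK1 in 2. With scaling by library totals their adjusted p for the number was 0.614 for MID2, 0.403 for MTL1 and 0.757 for MKK1. With that scaling RLM1, WSC2, SLT2, PKC1, BCK1 and MKK2 passed, where 64.2% of all features did. Without 1 library at a time, RLM1, WSC2, SLT2, PKC1 and MTL1 passed in all 12 fits, MKK1 in 8, MID2 in 7, MKK2 in 3 and BCK1 in 2. WSC1, the gene that missed the threshold (adjusted p 0.0763) and passed in 2 of the 12 fits, was highest in number 3 at 0 h and in number 2 in KCl in both strains. The median range between numbers was 0.40 on the log2 scale for the 10 genes and 0.44 over all features, so the 10 genes were near the typical feature in this respect.

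**Figure D4:**
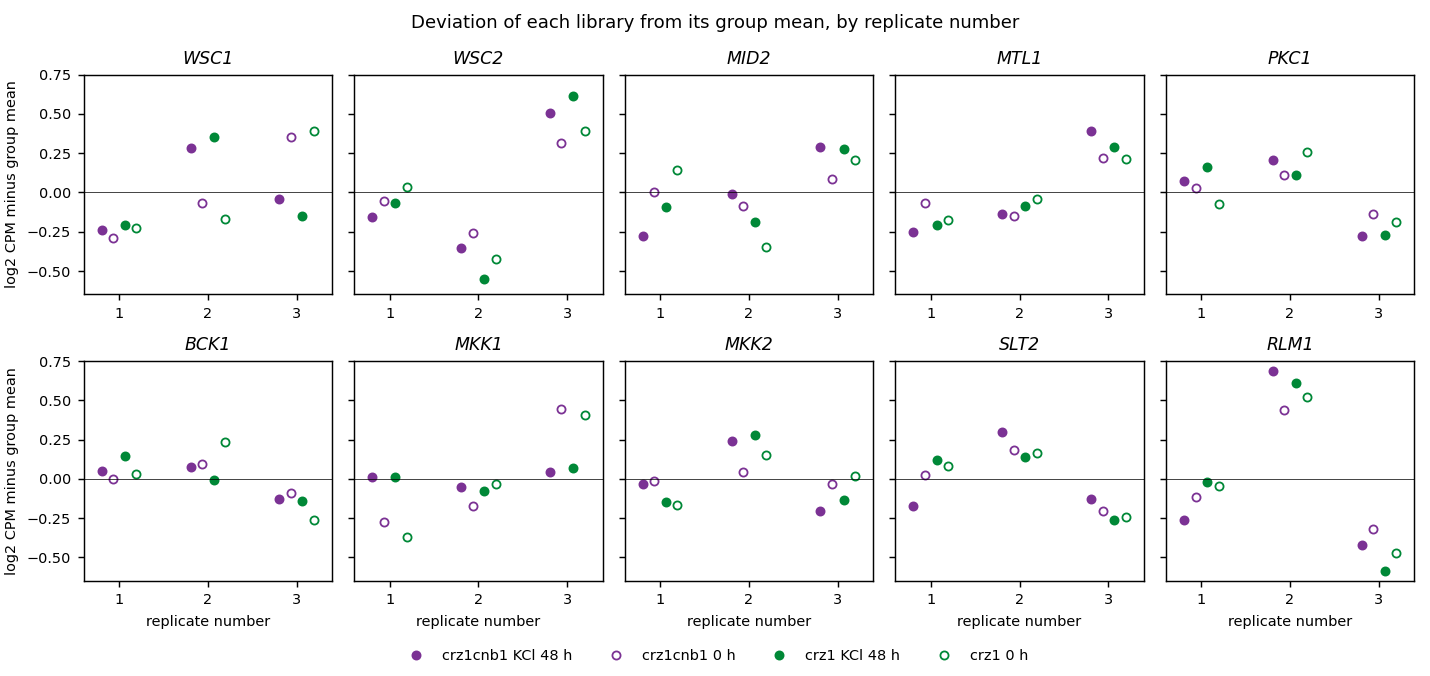
Log2 CPM of each library minus the mean of its group, by replicate number, for the 10 genes, with filled points for KCl and open points for 0 h, crz1cnb1 in purple and crz1 in green. The 4 groups follow the same course for RLM1 (high in number 2, low in number 3) and WSC2 (high in number 3, low in number 2), and WSC1 and MKK1 differ between KCl and 0 h in the libraries numbered 3.

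Other genes around the pathway were read from lists, in each strain and in the average over both strains, where 3.77% of all features were called without the block and 19.1% with it. Of 17 further genes upstream of the kinases (other sensors, Rho1 and its regulators), 0 were called in either strain without the block. With the block, ZEO1, whose product binds Mid2, fell in crz1 with a log2 fold change of −0.73 ± 0.14 (adjusted p 0.0147), a call that was lost without crz1 0 h library 1 (adjusted p 0.0820) or crz1 KCl library 1 (adjusted p 0.0533). ZEO1 averaged 445 ± 132 CPM in crz1 in KCl and 733 ± 178 CPM in crz1 at 0 h, and in crz1cnb1 its blocked log2 fold change was −0.50 ± 0.14 (adjusted p 0.0706). BAG7, which encodes a GTPase-activating protein for Rho1, had the largest upward value of that list, 0.78 ± 0.26 in crz1cnb1 without the block (adjusted p 0.296). In the average, 0 of the 17 were called without the block, and with it ZEO1 (−0.61 ± 0.10, adjusted p 0.0023) and BEM2 (−0.24 ± 0.06, adjusted p 0.0178), another GTPase-activating protein gene, fell and BAG7 rose (0.53 ± 0.16, adjusted p 0.0355). Without 1 library at a time the averaged call of ZEO1 held in 12 of 12 fits, that of BEM2 in 8 and that of BAG7 in 3, and BEM2 was not called with library totals (−0.12, adjusted p 0.206).

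Of 5 phosphatase genes, 0 were called without the block. SDP1, a dual-specificity phosphatase that removes phosphate from Slt2, rose in crz1 with the block by a log2 fold change of 1.04 ± 0.25 (adjusted p 0.0382), and in crz1cnb1 the value was 0.82 ± 0.26 (adjusted p 0.0912). It had few counts, 56 to 94 in crz1 in KCl and 30 to 43 in crz1 at 0 h. SDP1 was also the 1 gene of its list that rose in the average over both strains without the block (0.96 ± 0.21, adjusted p 0.0219). Without 1 library at a time, the crz1 call held in 5 of 12 blocked fits (adjusted p 0.0211 to 0.178), and the average held in 5 of 12 without the block (0.00492 to 0.0642) and in 12 of 12 with it (0.00261 to 0.0241). Of 4 further regulators of wall genes, 0 were called in either strain, and SKN7, a response regulator that also acts in wall and oxidant stress, had blocked values of −0.48 ± 0.20 in crz1cnb1 and −0.58 ± 0.20 in crz1 (adjusted p 0.188 in crz1cnb1 and 0.131 in crz1). SKN7 fell in the blocked average (−0.53 ± 0.14, adjusted p 0.0269), which held in 4 of 12 fits without 1 library, and without the block its average was −0.48 ± 0.22 (adjusted p 0.298).

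Of 18 wall genes listed as outputs of the pathway, 0 were called for KCl in either strain without the block. With it, PIR3, a wall protein, fell in crz1cnb1 with a log2 fold change of −0.53 ± 0.13 (adjusted p 0.0394), while in crz1 its value was −0.39 ± 0.13 (adjusted p 0.123). The PIR3 call held in 3 of 12 blocked fits without 1 library (adjusted p 0.0312 to 0.216) and was lost with library totals (−0.36, adjusted p 0.113). In the average, 0 of the 18 were called without the block, and with it PIR3 (−0.46 ± 0.09, adjusted p 0.0064) and CHS3, a chitin synthase gene (−0.30 ± 0.07, adjusted p 0.00998), fell in all 12 fits without 1 library, while KDX1, which encodes a relative of Slt2, rose (0.33 ± 0.08, adjusted p 0.0214) and held in 6 of 12. The median log2 fold change of the 18 in KCl was −0.05 in crz1cnb1 and −0.02 in crz1. At 0 h all 18 had a positive difference of crz1cnb1 over crz1, with a median of 0.17 beside 0.01 over all features and 0 called. That direction depends on the scaling, since 12 of 18 were positive with scaling by library totals and 8 of 18 with limma on log2(TPM + 1). It depends on single libraries as well: without crz1cnb1 0 h library 3 it was 9 of 18 with a median of 0.03, without crz1 0 h library 1 it was 13 with 0.11, without crz1 0 h library 2 it was 12 with 0.08, and the median was 0.32 without crz1cnb1 0 h library 2 and 0.37 without crz1 0 h library 3. For the strain difference averaged over both times, 0 of the 18 were called without the block. With it 1 was called, PIR3, higher in crz1cnb1 (0.54 ± 0.09, adjusted p 0.0333), where 0.269% of all features were called. That PIR3 call held in 0 of 12 fits without 1 library (adjusted p 0.0803 to 0.160). Between replicate numbers 18 of the 18 were called, where 59.9% of all features were. With scaling by library totals 15 of 18 were called, where 64.2% of all features were. CWP1, a wall mannoprotein, had the largest value of the list in KCl, 0.60 ± 0.43 in crz1 (adjusted p 0.874). That value comes mainly from library 3, with 379, 348 and 923 CPM in crz1 in KCl, against 370, 323 and 395 CPM in crz1 at 0 h. In crz1cnb1 CWP1 measured 475, 443 and 1366 CPM in KCl, against 528, 535 and 686 CPM at 0 h, so that only library 3 was higher in KCl.

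Of 18 genes of the HOG pathway, the osmosensing cascade that responds to high salt, 0 were called in either strain alone with or without the block, nor in the average without it. SHO1, one of its membrane sensors, had the value farthest from 0, −0.45 ± 0.21 in crz1cnb1 without the block (adjusted p 0.612). In the blocked average 6 of 18 were called: SHO1 (−0.36 ± 0.10, adjusted p 0.0271), the sensor gene MSB2 (−0.26 ± 0.07, adjusted p 0.0293) and the kinase gene HOG1 (−0.34 ± 0.08, adjusted p 0.0118) fell, and the kinase gene STE11, the anchor gene OPY2 and the transcription factor gene SMP1 rose by 0.24 to 0.35 (adjusted p 0.0280 to 0.0392). Without 1 library at a time between 0 and 4 rose and between 0 and 4 fell, HOG1 being called in 11 of 12 fits and the other 5 in 2 to 5, and with library totals 6 rose and 1 fell. Of 14 general stress genes, 13 had a positive log2 fold change in each strain, with a median of 1.19 in crz1cnb1 and 1.35 in crz1. In each strain 1 rose without the block (HSP12), and HXK1, a hexokinase gene, also rose in crz1 with the block (1.25 ± 0.32, adjusted p 0.0497), which held in 5 of 12 fits without 1 library (adjusted p 0.0113 to 0.240). In the average 6 of 14 rose without the block (HSP12, DDR2, HSP26, PGM2, HXK1 and SOL4, by 1.06 to 2.65 on the log2 scale) and 7 with it, and without 1 library at a time 2 to 10 rose without the block and 3 to 10 with it. The summed CPM of the 14 was 774 to 2555 in crz1cnb1 in KCl and 651 to 770.3 in crz1cnb1 at 0 h, and 929 to 2762 in crz1 in KCl and 659 to 827 in crz1 at 0 h. The summed CPM of the 10 sensor and kinase pathway genes was 674 to 818 in crz1cnb1 in KCl and 786 to 934 in crz1cnb1 at 0 h, and 691 to 745 in crz1 in KCl and 770.3 to 903 in crz1 at 0 h. The sums in CPM overlap in crz1cnb1 and do not overlap in crz1, and WSC1, MID2 and WSC2 have the highest CPM among the 10. The separation in crz1 depends on the scaling, since the sums of the deposited TPM overlap in crz1 as well. No share over all features was computed for such sums. The part of the general stress genes in these values was not tested.

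Across the 12 libraries, the genes whose log2 CPM ran most like SLT2, among 4966 named genes, were RRP4 (Pearson r 0.94), IES3 (0.93) and CCT2 (0.93). Those most like RLM1 were SOK2, PSY2 and BSP1, each at 0.98. All 6 were higher in number 2 than in number 1 and lower in number 3, as SLT2 and RLM1 were, and no correlation within the numbers was computed.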

How the data were processed

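Counts per feature and TPM were deposited by the authors, each library being 1 column, per the file headers. The tools featureCounts and DESeq2 and build R64 are named in the submitters' processing notes; no source used here gives the aligner, the strand setting or the treatment of multiply matching reads. Groups came from the labels. Counts were tested with edgeR 4.0.16 in R 4.3.3 (filterByExpr, TMM, 1 coefficient per group over all 12 libraries, robust glmQLFit, glmQLFTest) with Benjamini-Hochberg adjustment over 6309 features at 0.05. SEs are the log2 fold change over the square root of F, and 95% intervals use the t distribution. Library totals were 21305485 to 21599279 counts, and precision was taken from the spread of 3 libraries per group. DESeq2 1.42.0 on the counts and limma 3.58.1 on log2 of the deposited TPM plus 1 or 0.1 were alternatives, as were other scalings, no filter and each library left out. The fits were tested on simulated data. Replicate numbers come from the sample titles and were used to pair the samples, although the labels do not say what they mark. Deviations from group means correlated between libraries of 1 number (18 pairs, Pearson r between 0.309 and 0.827). Between libraries of 2 numbers r lay between −0.732 and 0.317 (36 pairs), so the ranges overlap slightly. Deviations within a group of 3 libraries sum to 0, so the 2 ranges are not independent of each other. Promoters and positions are from the RefSeq genome of build R64. The genes and lists were chosen with earlier results of these data known. Named genes are the 10 members, the genes of each list called without the block and then with it (up to 8), the gene of each list farthest from 0 in KCl, the 3 genes most like SLT2 and RLM1, and the deleted genes. MATa and MATalpha markers served as a check of cell type: with the block, 4 of 6 MATa markers fell in KCl in crz1cnb1 and 3 of 6 in crz1, and 1 of 4 MATalpha markers fell in each strain, where 4.98% of all features were called in either direction in crz1cnb1 and 4.82% in crz1.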

Additional observations from a re-analysis of the deposited data

How the results depend on the processing

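Single-gene values were recomputed under 38 other settings, 2630 values in all. Of these, 2322 kept direction and side of the threshold, and 23 passed only in the alternative. Another 285 changed sign without passing the threshold in either fit (largest log2 fold change without the block 0.32). The count of reversals after a call was 0, which was fixed in advance because none of the 10 genes was called without the block. The replicate block left the count of called genes among the 10 at 0 in each of the 5 comparisons, while over all features it gave 314 in place of 37 for KCl in crz1cnb1, 304 in place of 36 in crz1, 4 in place of 3 between strains in KCl, 5 in place of 1 at 0 h and 0 in both fits for the difference. The block with library totals gave 1 for KCl in crz1cnb1 (RLM1, 0.43, adjusted p 0.0440), and without 1 library at a time it gave 0 to 1 for KCl in crz1 (MID2 without crz1 0 h replicate 2, −0.57, adjusted p 0.0286). For KCl averaged over the strains the block gave 1 (MID2), also with DESeq2 size factors or no filter (1 each), 2 with library totals (MID2 and RLM1) and 1 to 2 without 1 library at a time; MID2 stayed called in all 12 of those fits. Between replicate numbers, 9 of 10 were called (59.9% of all features), 8 with DESeq2 size factors (59.5%) and 9 with no filter (54.4%). With library totals 6 were called, near the share of all features there (64.2%). Without 1 library at a time 6 to 10 were called (47.5% to 64.1% of all features). Library totals moved the median of all features by up to 0.16 on the log2 scale, so that signs near 0 depend on scaling; the cause of the other shifts was not tested. Counting error was largest for MTL1, with 207 to 350 counts per library.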
